A study of Mus musculus with 2 samples.

Results

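The interleukin-1 (IL-1) family and the inflammasome were examined in microglia sorted from the mouse brain after sham surgery. The group was defined by name as 10 genes, and all 10 were found among the 53801 genes listed in each library. It holds the ligand genes Il1a, Il1b and Il18, the antagonist gene Il1rn, the receptor genes Il1r1 and Il1rap, and the inflammasome genes Nlrp3, Aim2, Pycard and Casp1. A wider list of 57 IL-1 and inflammasome pathway genes, these 10 included, was set beside them.

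Both libraries came from Cx3cr1(CreER/wt) mice on the C57BL/6 background, 1 mouse per library, and together they formed 1 group. In these mice a tamoxifen-inducible Cre recombinase sits in one allele of Cx3cr1, a gene also active in other macrophages and in monocytes. They served as the wild-type background. All received tamoxifen (75 mg/kg per day for 4 days), and sham surgery followed 14 days after the first injection. The labels describe males of 8 to 10 weeks, while the methods of the study give an older range and both sexes, and the labels put the treatment as none. Cells were taken from the left hemisphere 3 days after surgery and gated as CD11c–Ly6G–CD11b+CD45low. Libraries of the stroke arm were not analysed here, so the data give levels and their spread between 2 mice and no test between conditions.

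IL-1α and IL-1β both act through IL-1 receptor type 1, which signals only together with the IL-1 receptor accessory protein. The IL-1 receptor antagonist occupies the same receptor without starting a signal. IL-1β and IL-18 are made as inactive precursors and are cut by caspase-1, which is activated when a sensor such as NLRP3 or AIM2 assembles the adaptor ASC into an inflammasome. Microglia are a main source of IL-1 in the injured brain.

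Sham replicate 1 held 23381026 counts and replicate 2 held 41142609, so a count of 0 allows up to 0.128 and 0.0729 CPM (the count over the total on all genes, scaled to 1000000). At least 10 counts in both libraries were found for 13445 genes, called counted here, and for all 10 members. Of the counted genes, 31.7% differed by over 2-fold in CPM between the replicates, with 5.74% higher in replicate 2 and 25.9% higher in replicate 1. The median log2 ratio of replicate 2 to replicate 1 was −0.26 on the CPM scale and −0.03 after TMM normalization, a scaling that is less moved by a few abundant genes. The common biological coefficient of variation of 0.479, estimated from these same 2 libraries with TMM normalization, corresponded to an SD of 0.98 for such a log2 ratio. A 2-fold difference was thus about the spread over genes within this pair, which does not give the usual spread between mice. The 10 microglia markers were counted in both libraries and summed to 49652 and 45555 CPM, with Csf1r the most abundant by mean level and 2 of the 10 over 2-fold higher in replicate 1. Neutrophil genes set the replicates apart. The 10 genes of immature neutrophils summed to 2110 CPM in replicate 1 and 34084 CPM in replicate 2, each of them over 2-fold higher in replicate 2, with Ngp the most abundant. The 9 genes of mature neutrophils summed to 3501 and 31567 CPM, 7 of them over 2-fold higher, with S100a8 the most abundant. No neutrophil gene was at 0 in either library. In sorted bulk samples, fewer cells of a type and less RNA per cell cannot be told apart.

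Il1a and Il1b were the most abundant members and lie next to each other on the minus strand of chromosome 2, so the bases before their start sites are shown, with those of Il1rn, the member that differed most between the replicates. The sequences are from RefSeq (GRCm38.p6), in which each of the 10 members had at least 1 start. Each runs 5′ to 3′ over the 250 bases that end just before the start. Capitals mark matches to a TATA box (TATAAA) or to the AP-1 motif (TGANTCA) on either strand. Il1a lies before its start at chr2:129309973-129310222 (minus strand), Il1b at chr2:129371140-129371389 (minus strand) and Il1rn, at the second of its 3 starts, at chr2:24345041-24345290 (plus strand).
Il1a: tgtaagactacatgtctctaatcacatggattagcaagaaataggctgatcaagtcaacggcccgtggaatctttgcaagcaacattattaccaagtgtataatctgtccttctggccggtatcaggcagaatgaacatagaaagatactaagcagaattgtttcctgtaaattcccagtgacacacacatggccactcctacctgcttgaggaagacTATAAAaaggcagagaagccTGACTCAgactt
Il1b: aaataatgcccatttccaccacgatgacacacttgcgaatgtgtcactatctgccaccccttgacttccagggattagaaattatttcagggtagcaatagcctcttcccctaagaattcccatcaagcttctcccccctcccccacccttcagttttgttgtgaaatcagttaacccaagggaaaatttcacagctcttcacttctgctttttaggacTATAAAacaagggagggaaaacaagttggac
Il1rn: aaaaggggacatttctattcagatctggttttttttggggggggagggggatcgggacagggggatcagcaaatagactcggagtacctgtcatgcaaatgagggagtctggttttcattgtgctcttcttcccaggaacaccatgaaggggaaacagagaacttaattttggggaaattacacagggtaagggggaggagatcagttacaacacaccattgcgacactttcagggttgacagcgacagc

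The Il1a and Il1b sequences each held a TATA box, beginning 32 and 31 bases before the start, and the Il1rn sequence shown held none. TATAAA occurred in 12.4% of all 32851 mouse windows of this length, and among the members also in Il18. The AP-1 motif lay 12 bases before the start of Il1a and, in Il1rn, 141 bases before its first start, against 6.75% of all windows. Of the other motifs searched on both strands, the NF-κB motif (GGGA, any 2 bases, then TTCC) matched none of the 10 members (1.21% of all windows). The ETS and PU.1 motif GAGGAA matched 5 members (23.3% of all windows) and the C/EBP motif TTNCNNAA matched 7 (36.8%), and the matches of these motifs in Il1a overlap each other. Members with several starts had more windows in which to match, and a match describes the letters only.

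Il1a, which encodes IL-1α, was abundant and close in both mice. It lies on chromosome 2 of GRCm38 (129299610 to 129309972) and had 274 CPM in replicate 1 and 322 CPM in replicate 2, or 298 ± 33.6 CPM (SD, n = 2). Per kilobase of annotated exon, the scale on which genes are compared here, its level was 139 and 163 CPM. This was above 97.7% and 97.9% of counted genes. The log2 ratio of replicate 2 to replicate 1 was 0.23 (95% exact counting interval 0.19 to 0.27), well inside the spread over genes of this pair. A noncoding gene on the opposite strand, Gm14023, shares 222 exon bases with Il1a and had 614 and 804 counts. The library kit does not mark strand, so reads in those bases cannot be assigned to one of them.

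Il1b, which encodes IL-1β (chromosome 2, 129364570 to 129371139), matched Il1a in level but varied more. It had 197 CPM in replicate 1 and 389 CPM in replicate 2, or 293 ± 136 CPM (SD, n = 2), and 103 and 204 CPM per kilobase. Replicate 2 was 1.98-fold higher (95% counting interval 1.91 to 2.04), just inside the 2-fold limit on the CPM scale, and 2.32-fold higher after TMM normalization. Its level per kilobase was above 96.7% and 98.4% of counted genes, and with all annotated exons the order of the IL-1 ligand genes turned between the mice. Within replicate 1, Il1a was 1.35 times Il1b per kilobase (95% interval 1.30 to 1.40), and within replicate 2 it was 0.799 times Il1b (0.781 to 0.818). The turn rests on this length. Per kilobase of the longest transcript, which for Il1b is 1356 in place of 1907 bases, Il1b was above Il1a in both mice, 1.04-fold in replicate 1 and 1.76-fold in replicate 2. Il1b was higher in the library with more neutrophil RNA, in which the mature neutrophil list was 9.02-fold and the immature list 16.2-fold higher. The part of neutrophil RNA in this difference was not tested. Early-response genes, known to rise while cells are isolated, summed to 17318 CPM in replicate 1 and 20593 CPM in replicate 2 over 10 genes, none at 0. Of these genes 7 were lower in replicate 2 and 3 were higher, 2 by over 2-fold in each direction, and their median log2 ratio was −0.14. Fos, the most abundant by mean level, had 2786 and 5980 CPM, and Nr4a1 had 139 and 34.3 CPM. The cells had been dissociated with heating, and the part of isolation in the Il1a and Il1b levels was not tested.

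Il18, which encodes IL-18 (chromosome 9, 50554827 to 50581840), was lower than both IL-1 ligand genes and differed little between the mice. It had 39.4 and 50.8 CPM, or 45.1 ± 8.02 CPM (SD, n = 2). Per kilobase, 38.2 and 49.2 CPM were measured, above 90.3% and 92.3% of counted genes. Within each library Il1b exceeded Il18 per kilobase, 2.69-fold in replicate 1 (95% interval 2.51 to 2.90) and 4.14-fold in replicate 2 (3.95 to 4.33).

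Il1rn, which encodes the IL-1 receptor antagonist (chromosome 2, 24336853 to 24351494), was far below Il1a and Il1b and was the only member over 2-fold apart on the CPM scale. It had 297 counts in replicate 1 and 2187 in replicate 2, or 12.7 and 53.2 CPM (32.9 ± 28.6 CPM, SD, n = 2). Replicate 2 was 4.18-fold higher (95% counting interval 3.71 to 4.74), and 98.1% of counted genes had a lower ratio of replicate 2 to replicate 1. In size, whichever replicate was higher, 91.9% of counted genes differed less. That is 1 of 10 members over 2-fold higher in replicate 2, against 5.74% of counted genes. After TMM normalization 3 of 10 members were over 2-fold higher in replicate 2, namely Il1rn (4.91-fold), Il1b and Casp1 (2.15-fold), against 8.46% of counted genes. None was over 2-fold higher in replicate 1 on either scale, against 20.0% of counted genes after TMM normalization. The member just inside the limit on the CPM scale after Il1b was Nlrp3, 1.89-fold higher in replicate 1. As for Il1b, the library with more Il1rn was the one with more neutrophil RNA, whose part was not tested.

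Il1a and Il1b stood far above the antagonist gene in both mice. Il18 had 39.4 and 50.8 CPM, above Il1rn in replicate 1 and slightly below it in replicate 2, and was above it per kilobase in both. Per kilobase, Il1b was 44.9 times Il1rn in replicate 1 (95% interval 39.9 to 50.7) and 21.2 times Il1rn in replicate 2 (20.3 to 22.2). Il1a was 60.5 and 17.0 times Il1rn, a ratio added after the values were seen. These ratios do not depend on depth or scaling, but they do on length. With longest transcripts, Il1b was 29.1 and 13.8 times Il1rn and Il1a was 27.9 and 7.83 times Il1rn. The 2.12-fold change of the Il1b ratio between the mice was larger than counting error. Il1rn has 6 annotated transcripts from several starts, with intracellular and secreted forms, and gene counts do not separate them. Counting its exons as their union of 5535 bases gave 2.29 and 9.60 CPM per kilobase.

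**Figure D1:**
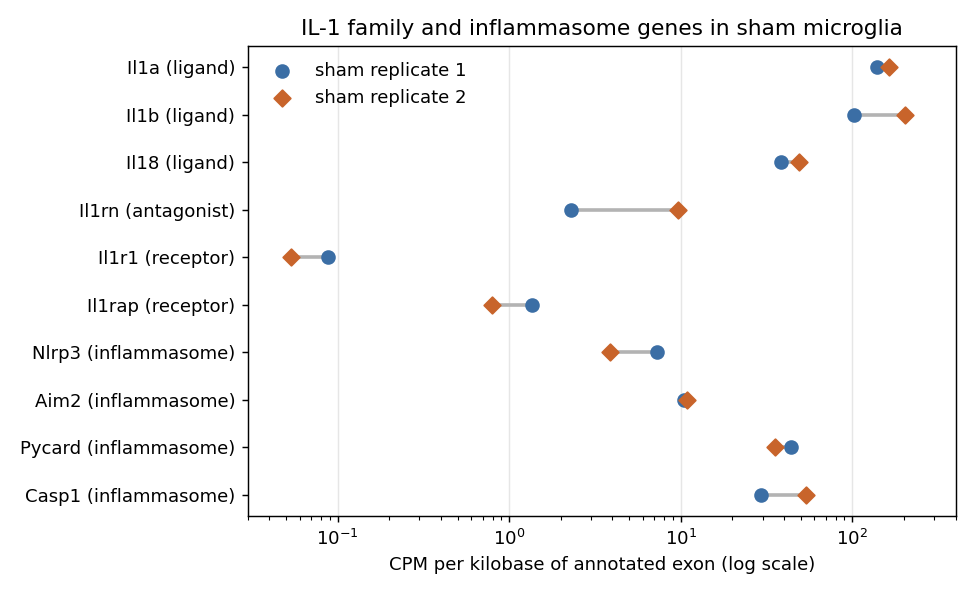
Levels of the 10 genes in each sham library, as CPM per kilobase of annotated exon on a log axis, with circles for replicate 1 and diamonds for replicate 2 joined by a line. Il1a and Il1b lie between 103 and 204, Il1rn between 2.29 and 9.60, and Il1r1 below 0.1 in both mice.

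The signalling receptor was close to the limit of what these libraries detect. Il1r1, which encodes IL-1 receptor type 1 (chromosome 1, 40225080 to 40317257), had 13 counts in replicate 1 and 14 in replicate 2, or 0.556 and 0.340 CPM. Per kilobase it was at 0.0874 and 0.0535 CPM, with 0.811% and 0.766% of counted genes below it. Its log2 ratio between the mice was −0.71, with a counting interval from −1.91 to 0.50 that holds 0. Il1r1 is known from brain endothelium and choroid plexus. The 8 endothelial markers summed to 23.2 and 17.6 CPM, with Tek at 0 in both libraries and Slco1a4 at 0 in replicate 1. Without Pecam1, the most abundant, they summed to 7.10 and 3.21 CPM. The 6 choroid plexus markers summed to 24.4 and 370 CPM, with none at 0. Without Ttr, the most abundant, they summed to 2.48 and 13.9 CPM. The few counts of Il1r1 do not settle its direction between the mice, and the part of other cells in them was not tested.

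Il1rap, which encodes the accessory protein shared by the receptors for IL-1, IL-33 and IL-36 (chromosome 16, 26581704 to 26730117), was higher than Il1r1. It had 15.4 and 9.04 CPM, or 12.2 ± 4.52 CPM (SD, n = 2), with a log2 ratio of −0.77. Per kilobase it was 15.6 times Il1r1 in replicate 1 (95% interval 8.98 to 29.5) and 14.9 times Il1r1 in replicate 2 (8.76 to 27.5), so the pair kept the same ratio within counting error. Il1rap has 7 annotated transcripts, among them a soluble form, which gene counts do not separate. With the length of the longest transcript in place of all exons, the mean log2 ratio of Il1rap to Il1r1 rose from 3.93 to 5.13.

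Il1r1 lies in a row of 6 receptor genes of the family on chromosome 1 and was the lowest of them per kilobase in replicate 2. In replicate 1 only Il18r1 was lower, with 0 counts. Il1r2, which encodes the decoy receptor that binds IL-1 without signalling, had 622 counts in replicate 1 and 4497 in replicate 2, or 26.6 and 109 CPM. It was 4.11-fold higher in replicate 2, the library with more neutrophil RNA. Il1rl2, which encodes the IL-36 receptor, had 53.0 and 21.2 CPM and was 2.50-fold higher in replicate 1. Decoy and IL-36 receptor genes thus both exceeded Il1r1 in each mouse, though they differed in opposite directions between the mice. Per kilobase, Il1r2 was 160 times Il1r1 in replicate 1 (95% interval 92.6 to 301) and 1071 times in replicate 2 (638 to 1961), a ratio added after the values were seen.

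The IL-18 and IL-33 receptor genes were lower. Il18r1, which encodes the ligand-binding IL-18 receptor chain, had 0 counts in replicate 1, which allows up to 0.128 CPM, and 92 counts (2.24 CPM) in replicate 2. Il18rap, its partner chain, had 6.84 and 17.2 CPM, 2.51-fold higher in replicate 2. Markers of basophils or mast cells were also higher in replicate 2, at 0.257 and 169 CPM over 6 genes. Of these, Mcpt8, Prss34, Ms4a2 and Fcer1a were at 0 in replicate 1 and none was at 0 in replicate 2. Markers of T or NK cells (0.171 and 3.38 CPM) and of neutrophils were higher in replicate 2 as well. Without Cd3d, the most abundant, the T or NK list summed to 0.0428 and 0.729 CPM. In that list Cd3e, Cd3g, Ncr1 and Klrb1c were at 0 in replicate 1, and Cd3e and Trac in replicate 2. The part of these cells was not tested. Il18bp, which encodes a secreted inhibitor of IL-18, had 7.48 and 14.5 CPM, 1.94-fold higher in replicate 2. Il1rl1, which encodes the IL-33 receptor, had 7.06 and 3.55 CPM, and Sigirr, a negative regulator, had 1.15 and 2.48 CPM, 2.15-fold higher in replicate 2.

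Of the other ligand genes of the family, only Il1f9, which encodes IL-36γ, was counted in both libraries. It had 8.77 and 52.4 CPM and was 5.97-fold higher in replicate 2. Il1f5, Il1f6 and Il1f10 had no counts in either library. Il1f8 had 0 and 4 counts, and Il33 had 2 and 14. All 5 counted ligand genes, with Il1rn among them, were higher in replicate 2, as were 38.5% of all counted genes. The neutrophil lists were higher in the same library, and their part was not tested.

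**Figure D2:**
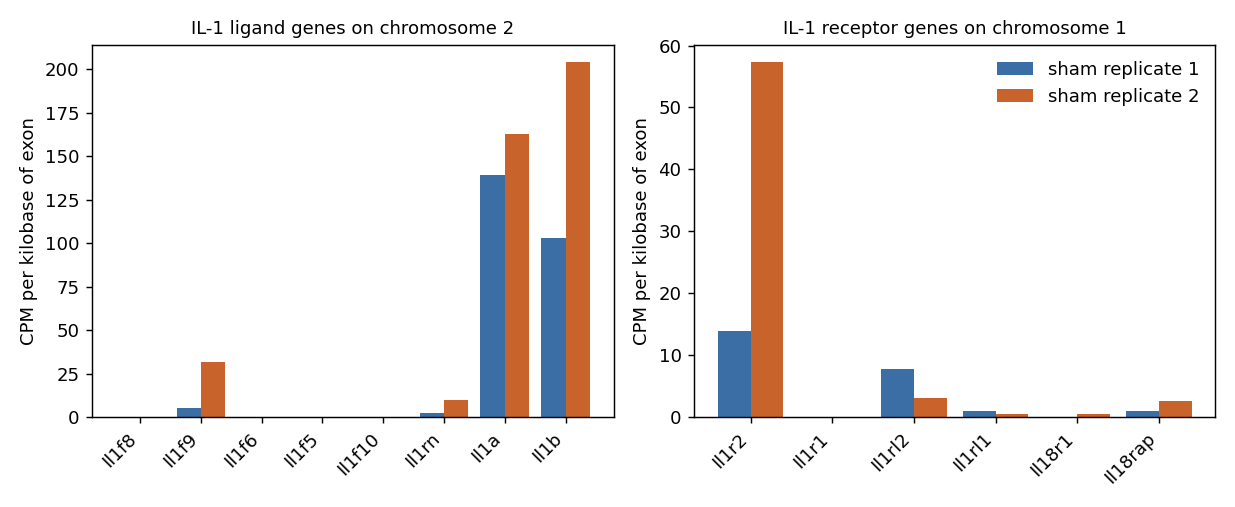
Levels in CPM per kilobase of exon of the 8 IL-1 ligand genes on chromosome 2 and the 6 receptor genes on chromosome 1, in chromosomal order, with 1 bar per sham library. Il1a reaches 163 and Il1b 204, both in replicate 2, while Il1f5, Il1f6 and Il1f10 are at 0, and Il1r2 stands highest in the receptor row at 13.9 and 57.3 beside Il1r1 below 0.1.

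The inflammasome core was present in both mice at unequal levels, with adaptor and protease above the sensors. Pycard, which encodes ASC (chromosome 7, 127989708 to 127993867), had 167 CPM in replicate 1 and 135 CPM in replicate 2, or 151 ± 22.1 CPM (SD, n = 2), and 43.8 and 35.6 CPM per kilobase. Its annotated exons span 3800 bases, whereas the RefSeq gene spans 2495 bases in all. With the RefSeq span, an alternative chosen after the data were seen, its level was 66.8 and 54.2 CPM per kilobase. That span includes any introns, while the counts were taken over the longer annotated gene. These values can thus be too low or too high for a level per kilobase of RefSeq exon. A gene on the opposite strand, Gm45205, shares 485 exon bases with Pycard and had 4 and 3 counts.

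Casp1, which encodes caspase-1 (chromosome 9, 5298517 to 5307265), had 43.8 and 80.2 CPM, or 62.0 ± 25.8 CPM (SD, n = 2). Replicate 2 was 1.83-fold higher, inside the 2-fold limit, and the TMM value lay outside it. Within replicate 1, Casp1 was 0.668 times Pycard per kilobase (95% interval 0.623 to 0.715), and within replicate 2 it was 1.51 times Pycard (1.44 to 1.57). With this length the order of adaptor and protease thus turned between the mice. Longest transcripts could not change this ratio, since they equal all annotated exons for Casp1 (1497 bases) and for Pycard (3800 bases). With the shorter RefSeq span, introns included, Pycard was above Casp1 in replicate 1. In replicate 2 it was about level with Casp1 (54.2 and 53.6 CPM per kilobase), so the turn depends on the length used.

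Nlrp3, the gene of the sensor that responds to potassium efflux and tissue damage (chromosome 11, 59541568 to 59566956), had 29.7 and 15.7 CPM, or 22.7 ± 9.89 CPM (SD, n = 2). Its log2 ratio of −0.92 (−0.69 after TMM normalization) fell within the spread over genes of this pair. Aim2, the gene of the cytosolic DNA sensor (chromosome 1, 173350879 to 173466040), had 36.4 and 38.0 CPM, or 37.2 ± 1.11 CPM (SD, n = 2). Its log2 ratio of 0.06 (counting interval −0.06 to 0.18) was the closest to 0 among the members on the CPM scale. After TMM normalization Pycard was closest, at −0.07, and Aim2 was at 0.29. Aim2 exceeded Nlrp3 per kilobase in both mice, by 1.42-fold in replicate 1 (95% interval 1.28 to 1.57) and by 2.80-fold in replicate 2 (2.55 to 3.08). Nlrp3 stood below its adaptor, with Pycard 5.99 times Nlrp3 in replicate 1 (5.52 to 6.50) and 9.20 times in replicate 2 (8.48 to 9.99).

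**Figure D3:**
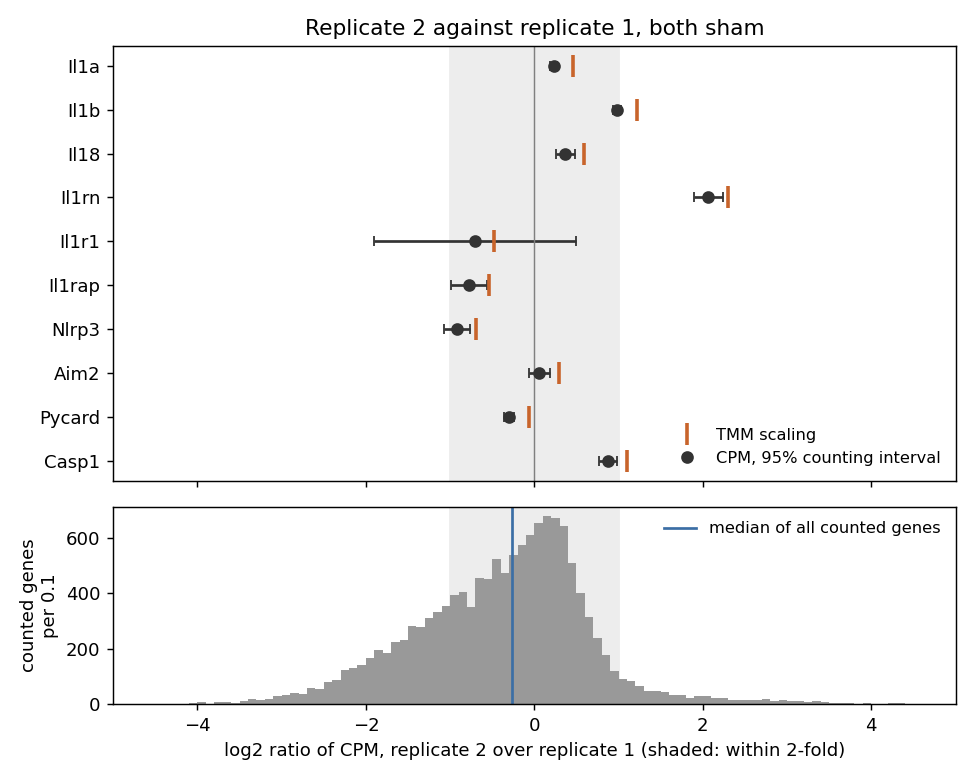
Log2 ratio of CPM in sham replicate 2 over replicate 1 for each of the 10 genes (points with 95% counting intervals, vertical marks for TMM scaling), above the number of counted genes per 0.1 of log2 ratio. On the CPM scale Il1rn at 2.07 lies alone outside the shaded 2-fold range, and Il1b and Casp1 leave it with TMM.

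Ordered by the mean level per kilobase, the members ran from Il1b (153 CPM) and Il1a (151 CPM) through Il18 (43.7), Casp1 (41.4), Pycard (39.7), Aim2 (10.6), Il1rn (5.95), Nlrp3 (5.59) and Il1rap (1.08) to Il1r1 (0.0704). The ranges of the 2 mice overlapped between Il1b and Il1a, between Il18, Casp1 and Pycard, and between Il1rn and Nlrp3, so these neighbours were not told apart. The other neighbours did not overlap, with Aim2 at 10.4 and 10.8 CPM per kilobase barely above the 9.60 of Il1rn in replicate 2. With longest transcripts the ranks stayed, but Il1rn (4.97 and 20.8 CPM per kilobase) overlapped Aim2 (12.8 and 13.4) and was above it in replicate 2. With the RefSeq span, introns included, for Pycard alone, Pycard (60.5 CPM per kilobase) came directly after Il1b and Il1a. Its values of 66.8 and 54.2 did not overlap those of Il18 on all annotated exons, a different measure of length. They did overlap those of Il18 with its longest transcript (44.6 and 57.4 CPM per kilobase). The rank of Pycard against Il18, Il1a and Il1b is thus not settled by this span.

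Beyond the members, 36 of the other 47 pathway genes were counted in both libraries. Of these, 5 were over 2-fold higher in replicate 2 and 11 over 2-fold higher in replicate 1, against 5.74% and 25.9% of all counted genes, and their median log2 ratio was −0.39. After TMM normalization the counts were 7 and 9, against 8.46% and 20.0% of all counted genes, with a median of −0.16. The 11 genes between receptor and NF-κB were all counted. The adaptor gene Myd88 had 160 and 187 CPM, and the kinase gene Irak4 had 44.3 and 40.8 CPM. Irak2 had 160 and 109 CPM, Tollip 108 and 59.0 CPM, and Tab2 64.9 and 37.5 CPM. These 5 genes stayed within 2-fold between the mice. Irak1 (143 and 35.8 CPM), Traf6 (32.0 and 8.99 CPM), Tab1 (59.5 and 19.0 CPM), Tab3 (9.02 and 3.21 CPM) and Map3k7 (36.2 and 6.49 CPM) were each over 2-fold higher in replicate 1, and stayed so after TMM normalization. Irak3, which encodes a kinase-dead brake on this pathway, went the other way with 9.67 and 21.9 CPM, 2.27-fold higher in replicate 2.

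Of the 8 other sensors counted, none was over 2-fold higher in replicate 2 and 5 were over 2-fold higher in replicate 1, against 5.74% and 25.9% of all counted genes. These were Naip2 (71.5 and 25.8 CPM), Naip6 (10.1 and 3.28 CPM), Nlrp1a (20.9 and 5.64 CPM), Nlrp1b (10.1 and 4.79 CPM) and Nlrc4 (2.14 and 0.997 CPM). After TMM normalization Nlrp1b and Nlrc4 fell inside the limit, which left 3 of 8 against 20.0% of all counted genes. Naip5 had 21.3 and 10.8 CPM. The Naip genes and the Nlrp1 genes are families of near-identical copies between which reads can be split, so single values for them are uncertain. Nlrp6 had no counts, and Naip1 and Nlrp10 had at most 3 counts in a library.

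Other caspase and effector genes stayed within 2-fold on the CPM scale. Gsdmd, which encodes the pore-forming effector gasdermin D, had 132 and 162 CPM. Casp8 had 192 and 252 CPM, and Casp4, the gene of the caspase that senses intracellular lipopolysaccharide, had 21.1 CPM in each library. Casp12 had 1.28 and 2.45 CPM, and was over 2-fold higher in replicate 2 only after TMM normalization. Among genes listed for activation and control of the inflammasome, Txnip had 414 and 568 CPM and the kinase gene Nek7 160 and 116 CPM. P2rx7, the gene of the ATP-gated channel upstream of potassium efflux, had 250 and 130 CPM. Panx1 had 20.8 and 16.8 CPM, Brcc3 21.3 and 33.5 CPM and Card9 71.6 and 60.6 CPM. None of these 6 genes was over 2-fold apart on either scale. Per kilobase, Gsdmd (55.6 and 68.1 CPM) stood above Casp1 in both libraries.

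**Figure D4:**
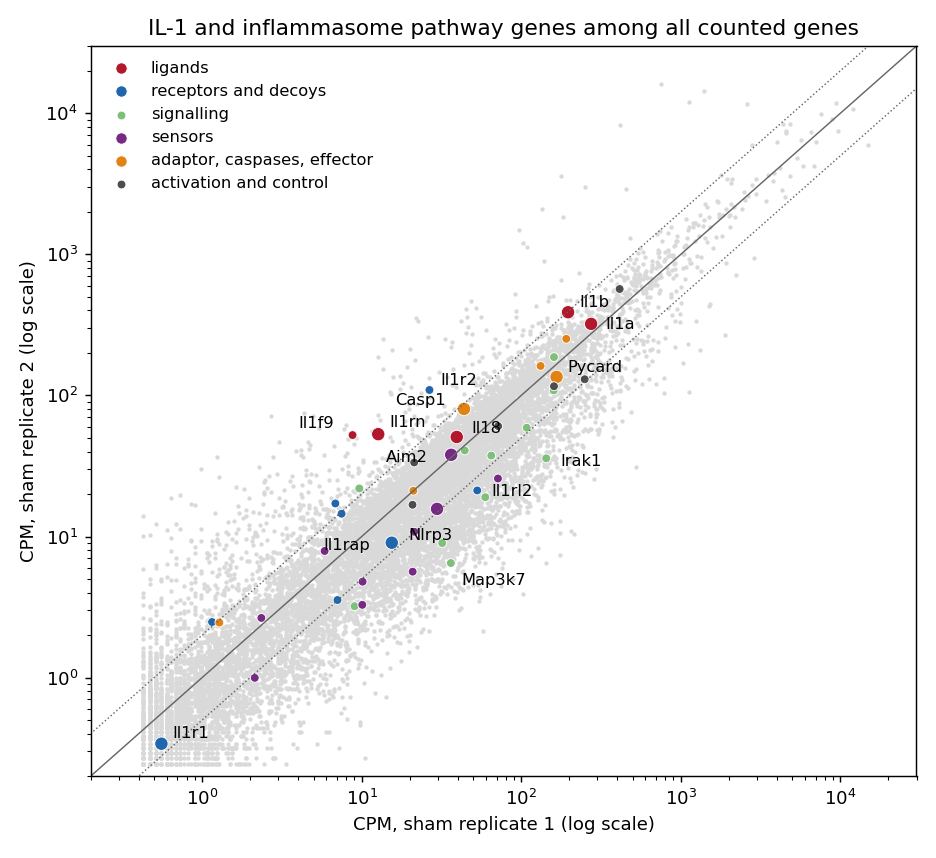
CPM of the 46 pathway genes counted in both libraries, coloured by role with large points for the 10 members, over all counted genes in grey, on log axes with replicate 1 on the horizontal and replicate 2 on the vertical axis. The solid line is equality and dotted lines mark 2-fold, beyond which Il1rn, Il1r2 and Il1f9 lie above and Irak1, Map3k7 and Il1rl2 below.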

How the data were processed

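RNA of sorted microglia from 2 sham mice was copied to cDNA with the SMART-Seq HT Kit, which does not mark strand, and sequenced as paired ends. Per the labels, HISAT2 mapped the reads to GRCm38 and HTSeq counted them for each gene identifier. The authors deposited these raw counts, with no scaling. Versions, annotation release and strand setting are not given in the sources used here. Symbols and exon lengths came from GENCODE M21 (GRCm38), with 53620 of 53801 identifiers named. File starts count from 0 and are given from 1.

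CPM was the count over the total on genes, scaled to 1000000, and CPM per kilobase divided it by the union of annotated exons. Values are means with SD (n = 2). Ratios have exact conditional binomial intervals at 95%. Intervals and limits (3 counts for a count of 0) cover counting error only, since amplified reads are not independent molecules. Depth was 23381026 and 41142609 counts, so counting error is smaller in replicate 2. With 1 group no test between conditions was run, and over 2-fold apart was the rule between libraries. The spread came from edgeR 4.0.16 (intercept only, TMM, low-count filter), with DESeq2 1.42.0 as an alternative, in R 4.3.3. Other steps used Python 3.11.15, numpy 2.4.6, scipy 1.17.1, pandas 2.3.3 and matplotlib 3.10.9. The interval and dispersion steps were tested on simulated data.

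Members and lists were chosen with earlier results of these data known. All members are named, and of the pathway list each gene with a mean of at least 10 CPM and each counted gene over 2-fold apart. Other genes named were chosen after their values were seen. Other marker lists, in replicates 1 and 2, summed to 253 and 452 CPM for monocytes, 662 and 279 for border macrophages, 66.5 and 59.6 for dendritic cells, 52.6 and 57.5 for B cells, 0.171 and 3.38 for T or NK cells, 226 and 177 for astrocytes, 3.21 and 5.37 for neurons and 235 and 242 for oligodendrocytes. Alternatives were other scalings, count filters and lengths, and leaving out each library.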

Additional observations from a re-analysis of the deposited data

How the results depend on the processing

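No paired analysis was possible because both mice belong to 1 group. Members over 2-fold apart numbered 1, and 3 with TMM or with DESeq2 size factors. The count over all genes was 4257, 7302 with at least 1 count in both libraries and 7013 with no filter (counts under 3 set to 3). The pathway count was 17 of 46 counted pathway genes, against 31.7% of all counted genes, and 16 to 19 under the alternatives. The coefficient of variation of 0.479 was 0.472 with DESeq2 and 0.550 with no filter. The mean log2 ratio of Il1rap to Il1r1 was 5.13 with longest transcripts, because the union of Il1rap exons is 11360 bases and its longest transcript 4520. This length left all 10 members at their rank but turned the mean log2 ratio of Il1a to Il1b from 0.05 to −0.44. With one library left out 3 to 8 kept their rank, with 3 in replicate 1 alone. Scaling moved none of the 10 mean levels in CPM by as much as 1 SD. Leaving out a library of 2 cannot do so, and so says nothing about stability. Longest transcripts moved the mean level per kilobase of Il1rn to 12.9, of Il1rap to 2.71 and of Aim2 to 13.1 CPM. Marker list sums moved by over 1 SD without their most abundant gene for 9 of 15 lists. That SD is between the 2 libraries, so lists far apart between the mice could lose most of their sum without moving. The choroid plexus list, for example, fell from a mean of 197 to 8.19 CPM and did not count as moved. Depth limits Il1r1 most.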

Other observations

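Il1rn and Il1r2, the genes of the receptor antagonist and of the decoy receptor, both oppose IL-1. Their ratio to each other did not differ between the mice beyond counting error. Per kilobase, Il1rn was 0.165 times Il1r2 in replicate 1 (95% counting interval 0.143 to 0.189) and 0.168 times in replicate 2 (0.159 to 0.176), although each gene differed about 4-fold between the mice. Relative to Il1b, Il1r2 was 0.135 (0.124 to 0.147) and 0.281 (0.272 to 0.290). Il1f9 was 0.0516 (0.0447 to 0.0594) and 0.156 (0.149 to 0.163) relative to Il1b. For IL-18, the gene of its binding protein was 0.0647 (0.0547 to 0.0761) and 0.0974 (0.0888 to 0.107) times Il18. These ratios were picked after the values were seen and rest on 2 libraries. Their size depends on the length used, here the union of annotated exons. The neutrophil lists were 9.02-fold and 16.2-fold higher in replicate 2, and some other marker lists were higher there too. The part of other cells in these genes was not tested.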
